A study of Vitis vinifera with 42 samples.

Results

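Abscisic acid (ABA) synthesis, breakdown and signalling genes were followed through berry development of Vitis vinifera cv. Cabernet Sauvignon, in the light and under cluster bagging. The members are the genes whose deposited KEGG orthology text names an abscisic acid receptor, a protein phosphatase 2C, the serine/threonine-protein kinase SRK2, the ABA responsive element binding factor, 9-cis-epoxycarotenoid dioxygenase or abscisic acid 8'-hydroxylase, and 128 of the 28940 genes in the table met this rule. T2 clusters were left in the light and their deseeded berries were sampled at 6 stages, E-L 29, 31 and 35 to 38. T1 clusters were kept in double-layer kraft paper bags from fruit-set at E-L 29 until harvest and sampled at 5 stages from E-L 31 on, and T8 clusters were given such bags at E-L 35, lost them again at E-L 36 and were sampled at the last 3 stages. E-L numbers are the stages of the modified Eichhorn-Lorenz scale, on which the berry begins to colour at E-L 35 and is harvest-ripe at E-L 38. All vines were own-rooted plants of the same vineyard and season, and each of the 14 groups had 3 biological replicates (A, B and C), each pooled from many berries, which gives 18 T2, 15 T1 and 9 T8 libraries.

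ABA is made from carotenoids, and cleavage of an epoxycarotenoid by 9-cis-epoxycarotenoid dioxygenase (NCED) is regarded as the rate-limiting step of its synthesis, while ABA 8'-hydroxylase, a cytochrome P450, begins its breakdown. In Arabidopsis the hormone is bound by soluble receptors of the PYR/PYL family, which then inhibit protein phosphatases of the 2C class. Kinases of the SnRK2 family are thereby set free to phosphorylate bZIP transcription factors that bind ABA responsive elements. In the grape berry, a non-climacteric fruit, ABA is known to build up around véraison, and in seeds the same pathway controls reserve storage and desiccation tolerance.

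The rule gathers 16 receptor, 47 phosphatase, 8 kinase, 21 transcription factor, 7 synthesis and 29 breakdown genes. A KEGG term is assigned by similarity, and not every assignment is close. A match is called close here where the term stands first and its bit score is at least 300, which holds for 49 members, and distant for the other 79. All 8 kinase genes and 6 of the 7 synthesis genes are close matches, against 5 of the 29 breakdown genes and 12 of the 47 phosphatase genes. Distant breakdown members include genes with the BLAST name of another cytochrome P450, CYP716A17, and distant phosphatase members are mostly unnamed or numbered 2C phosphatases with no part in the ABA pathway stated. Only 4 members carry a symbol in RefSeq, namely NCED2, HYD2, GRIP55 and VIT_202s0087g00930, whose RefSeq entry has the synonym CCD4b, the name of a carotenoid cleavage dioxygenase of another type.

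Levels are FPKM, fragments scaled by transcript length and by the library's mapped fragments, so they allow genes of different length to be set side by side. Differences between groups are given as log2 fold changes of FPKM + 1, and a gene is called where limma's Benjamini-Hochberg adjusted p over 21902 tested genes was under 0.05 and the log2 fold change was at least 1 in size. Of the 128 members, 94 reached a group mean of 1 FPKM somewhere and were tested. The other 34 members stayed at group means of 0.98 FPKM or less, 17 of them breakdown genes, and 1 was listed at 0 in every library.

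Total FPKM ranged from 561036 to 672526.1 per library, and the spacing of low values put the relative depth of the libraries between 0.937 and 1.044. PsbS and an early light-induced protein gene, used as a check of the bags, were both lower in T1 than in T2 at all 5 stages and lower in T8 at E-L 36. Transcripts of seed storage and oleosin genes were found in berries from which the seeds had been removed. A seed transcript score, the mean log2(FPKM + 1) of 8 such genes, was 5.95 ± 0.49 (SD, n = 3) in T1 at E-L 31 and 4.19 ± 1.09 in T2 at the same stage, where replicate C stood apart with a summed seed list level of 9265.23 FPKM against 303.85 and 404.18. T8 berries scored 4.69 ± 0.58 at E-L 36, where T2 had 2.82 ± 0.56, and 4.24 ± 0.20 at E-L 37, where T2 had 2.99 ± 0.41. Their summed seed list levels were 330.66 to 1245.09 FPKM at E-L 36 (T2 165.32 to 199.2). At E-L 37 they were 437.21 to 479.37 FPKM (T2 164.27 to 204.58). These sums were far below the 9878.06 to 45554.96 FPKM of T1 at E-L 31. In bulk samples, a change in the number of cells of a type cannot be told apart from a change in RNA per cell. The T1 replicate B at E-L 31 stood apart in many signalling genes below, and the values without it are given there.

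Together the members held 0.2333% to 0.3475% of total FPKM per library. In T2 berries 39 of the 94 tested members (41.49%) had their highest mean at E-L 29, against 34.19% of all tested genes. Of the 12 tested breakdown members, 9 were highest at E-L 29. Some were near 0 elsewhere and passed the 1 FPKM filter through that stage, such as VIT_218s0041g01580, at 0 in 34 libraries. Their peak stage follows from the filter, which also bears on the breakdown range given below. Of 17 transcription factor members, 6 were highest at E-L 29 and 6 at harvest, 35.29% each, against 34.19% and 23.5% of all tested genes. The synthesis and breakdown members ranged most over development, with a median range in T2 of 3.58 and 3.24 on the log2 scale, and phosphatase members least (1.03). The median over all tested members was 1.33, close to the 1.26 of all genes.

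The gene with the highest NCED level early in T2 was VIT_219s0093g00550, a close match to 9-cis-epoxycarotenoid dioxygenase. In T2 its level in replicates A, B and C was 89.49, 57.35 and 54.68 FPKM at E-L 29, then 37.27, 27.97 and 72.68 FPKM at E-L 31, before 48.68, 49.06 and 61.75 FPKM at E-L 35. E-L 36 berries had 15.84, 12.26 and 12.26 FPKM, E-L 37 berries 5.21, 5.01 and 3.87 FPKM, and harvest berries 7.38, 6.7 and 7.61 FPKM. The transcript thus fell after the onset of colouring, by 1.91 on the log2 scale between E-L 35 and 36 (adjusted p = 1.3e-05) and by 1.34 between E-L 36 and 37 (adjusted p = 0.000495).

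Under bags from fruit-set the same NCED gene took another course before colouring. In T1 it stood at 34.72, 11.57 and 27.59 FPKM at E-L 31, climbed to 84.6, 92.67 and 83.64 FPKM by E-L 35, and was back at 34.89, 18.29 and 22.25 FPKM by E-L 36. All 3 T1 libraries at E-L 35 lay above all 3 of T2. T1 did not differ from T2 by the threshold at any single stage, but the T1 effect at E-L 31 minus that at E-L 35 was -1.60 (adjusted p = 0.00449), and within T1 the gene rose by 1.91 from E-L 31 to 35 (adjusted p = 2.07e-06).

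In T8 at E-L 36 the level of VIT_219s0093g00550 was 39.44, 44.73 and 25.84 FPKM, above every T2 library of that stage. The log2 fold change was 1.36 ± 0.29 (SE, adjusted p = 0.00158). With the seed transcript score as a covariate it was 1.13 with an adjusted p of 0.0559. By E-L 37 (9.17, 8.88 and 7.64 FPKM) and E-L 38 (6.43, 4.74 and 7.56 FPKM) the difference from T2 was not called, and the T8 effect at E-L 36 exceeded that at E-L 38 by 1.56 (adjusted p = 0.0339), a contrast lost without any of 9 single libraries (adjusted p 0.0592 to 0.0985) and with the covariate (1.40, adjusted p = 0.0945).

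NCED2 (VIT_210s0003g03750), named after its values were seen, encodes a second close NCED match. Its T2 levels were 42.13, 31.32 and 31.16 FPKM at E-L 29. They were down to 7.41, 3.8 and 11.8 FPKM by E-L 31 and up at 21.73, 20.97 and 23.44 FPKM by E-L 35. It fell by 2.15, rose by 1.52 and fell again by 1.25 over the steps to E-L 36, so that its lowest point before colouring was at E-L 31. No comparison of T1 or T8 with T2 called NCED2.

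**Figure D1:**
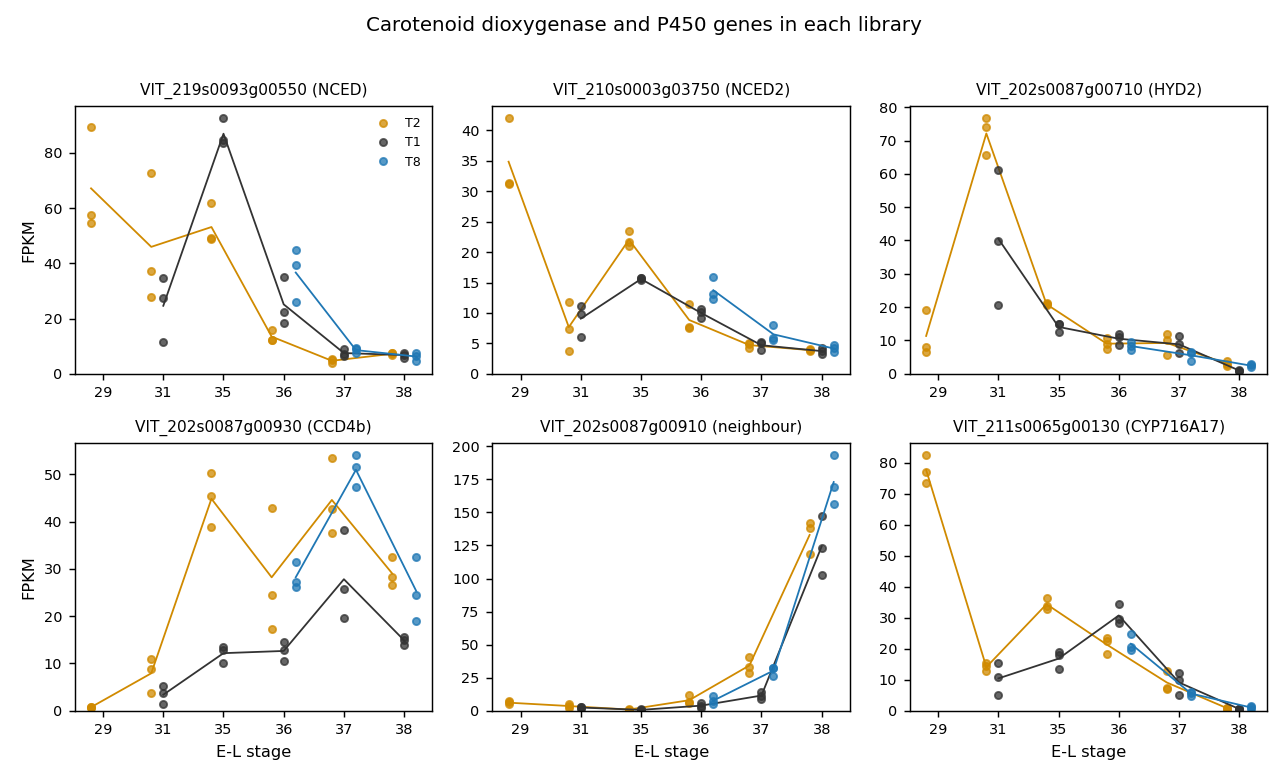
FPKM (vertical axes) of 6 synthesis and breakdown genes by E-L stage, with a point for each library and lines through the means of the 3 replicates of T2, T1 and T8. VIT_219s0093g00550 lay at 84.6, 92.67 and 83.64 FPKM in T1 at E-L 35 against 48.68, 49.06 and 61.75 in T2, and VIT_202s0087g00930 lay lower in T1 than in T2 at that stage.

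VIT_202s0087g00930, the dioxygenase with the synonym CCD4b, rose in T2 over both steps before colouring. It started from 0.85, 0.72 and 0.68 FPKM at E-L 29, had reached 8.92, 3.85 and 10.98 FPKM by E-L 31 and 50.22, 45.35 and 38.91 FPKM by E-L 35, and it rose by 2.25 and 2.45 on the log2 scale over these steps. Bagging from fruit-set went with a lower level, 10.19, 12.77 and 13.57 FPKM in T1 at E-L 35, where no T1 library reached the lowest of T2. The log2 fold change was -1.80 (adjusted p = 6.29e-05), and the call held without each library in turn and under every alternative tried. At E-L 31 T1 stood at 3.67, 1.36 and 5.13 FPKM, overlapping with T2, and the change of -1.03 (adjusted p = 0.00768) was lost without T2 replicate C (-0.77), T2 replicate A (-0.90) or T1 replicate B (-0.64).

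At E-L 36 VIT_202s0087g00930 stood at 31.39, 27.14 and 26.15 FPKM in T8 and at 14.57, 12.86 and 10.5 in T1, a T8 to T1 change of 1.11 (adjusted p = 0.0168). The change was 0.95 with an adjusted p of 0.205 with the seed score as covariate, and was lost without T1 replicate B (adjusted p = 0.0573), T1 replicate C (0.0871) or T8 replicate A (0.0909). The T2 libraries of the stage were spread from 17.25 to 42.92 FPKM.

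Its neighbour on chromosome 2 in RefSeq, VIT_202s0087g00910, with 0 genes between them, carries the same BLAST entry in the deposited annotation but another KEGG hit, and whether reads were divided between the genes was not tested. The neighbour fell between E-L 31 and 35, a step called in both T2 and T1, and then rose late. In T2 it was at 0.47, 0.78 and 1.44 FPKM at E-L 35 and had reached 6.41, 5.51 and 11.98 FPKM by E-L 36. E-L 37 berries had 33.38, 28.86 and 40.48 FPKM, and harvest berries 118.33, 142.01 and 138.51 FPKM. It rose by 2.21, 2.03 and 1.94 over these 3 steps and became the most abundant synthesis member at harvest.

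In T1 VIT_202s0087g00910 was called higher over the same steps from E-L 35 on, but its level at E-L 37 was lower. At E-L 37 it stood at 9.03, 13.96 and 11.49 FPKM in T1, below every T2 and T8 library (T8 32.58, 25.98 and 32.58). The T1 to T2 change was -1.50 ± 0.30 (adjusted p = 0.00248, or 0.0635 in a fit of these 6 libraries alone) and the T8 to T1 change was 1.34 (adjusted p = 0.00474). By E-L 38 T1 had reached 123.23, 147.14 and 102.42 FPKM after a rise of 3.33, overlapping with T2.

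VIT_205s0051g00670, a close NCED match that never reached 5 FPKM and is named after its values were seen, was also lower in T1. Its T1 levels at E-L 35 were 0.3, 0.42 and 0.5 FPKM against 2.52, 2.86 and 3.11 in T2, a change of -1.44 (adjusted p = 3.8e-05). At E-L 37 the change was -1.02 (adjusted p = 0.0076). At E-L 31 the T1 libraries stood higher (1.04, 3.52 and 1.34 against 0.21, 0.53 and 0.72), which was not called, but the effect at E-L 31 exceeded that at E-L 35 by 2.36.

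Among the breakdown genes, HYD2 (VIT_202s0087g00710) is the most abundant close match to ABA 8'-hydroxylase. Its T2 levels were 19.25, 8.15 and 6.63 FPKM at E-L 29, then 74.09, 76.66 and 65.64 FPKM at E-L 31. E-L 35 berries had 20.82, 21.1 and 20.66 FPKM, and harvest berries 2.92, 3.76 and 2.36 FPKM. HYD2 therefore peaked at E-L 31 in T2, with a rise of 2.70 and a fall of 1.74 on either side of that stage. Neither T1 (39.7, 20.72 and 61.05 FPKM at E-L 31) nor T8 was called against T2 at any stage.

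The other breakdown members with a high level were genes of the youngest berries. VIT_218s0001g10500, a close match named ABA 8'-hydroxylase 4 by BLAST and chosen after its values were seen, stood at 10.34, 17.81 and 14.91 FPKM at E-L 29 in T2 and at 0.37 FPKM or less later, a fall of 3.75 by E-L 31. The distant members VIT_218s0041g01510 (9.14, 35.1 and 36.09 FPKM) and VIT_218s0041g01580 (4.72, 22.52 and 22.36 FPKM) carry the same BLAST entry, though their KEGG hits differ, and fell by 4.001 and 3.78 over the same step. In both genes replicate A was well below B and C.

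CYP716A17 (VIT_211s0065g00130), a distant member of a P450 family known for triterpenoid oxidation, was the most abundant breakdown member at E-L 29 with 82.43, 77.22 and 73.66 FPKM. It fell by 2.39, rose by 1.23 to 33.82, 36.48 and 32.92 at E-L 35, and fell again by 2.46 between E-L 37 and harvest. In T1 at E-L 35 it was at 17.85, 13.59 and 19.04 FPKM, with no overlap, a change of -1.002 (adjusted p = 0.00895) that fell just short of the fold threshold without T2 replicate B (-0.96) and was not called without T1 replicate B (-0.86).

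VIT_211s0065g00630, another distant P450 member, had 15.92, 13.81 and 11.9 FPKM in T2 at E-L 29. It was listed at 0 in all T2 and T1 libraries at E-L 36, while T8 had 3.06, 2.05 and 3.73 FPKM. The difference was called against T2 (adjusted p = 3.28e-06) and T1 (adjusted p = 7.09e-06), and no fold is given against 0. By E-L 37 T8 stood at 0.07, 0.32 and 0.15 FPKM, and the T8 effect at E-L 36 differed from that at E-L 37 (adjusted p = 0.0087).

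The receptor genes split into steady and variable members. VIT_202s0025g01340 (38.56 to 80.82 FPKM over the 42 libraries) and VIT_216s0050g02620 (11.24 to 24.05 FPKM) were the most abundant close receptor matches, and no comparison called them. VIT_201s0026g00570, a distant match named an MLP-like protein, was a gene of young berries, at 32.93, 51.03 and 48.97 FPKM at E-L 29 and 2.85 FPKM or less later in T2, a fall of 4.78.

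VIT_208s0058g00470, the PYL4-like receptor, also belonged to green berries but was raised in several T1 and T8 groups. In T2 it stood at 17.92, 16.47 and 16.07 FPKM at E-L 29, then 10.42, 9.46 and 27.57 FPKM at E-L 31. By E-L 35 it was down to 1.05, 1.54 and 1.15 FPKM, a fall of 2.75. In T8 at E-L 36 it was at 11.28, 3.23 and 3.9 FPKM against 0.21, 0.64 and 0.21 in T2 and 0.88, 0.85 and 1.03 in T1. All T8 libraries were above all others of the stage, with a change of 2.24 against T2 (adjusted p = 8.37e-05) that held in every alternative and without each library, and of 1.72 against T1 (adjusted p = 0.00264), which was lost without T8 replicate A (1.25, adjusted p = 0.059) and with the seed score as covariate (1.22, adjusted p = 0.166).

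The other differences of the PYL4-like gene were less stable. At E-L 37 T8 had 3.81, 3.65 and 4.75 FPKM against 1.07, 0.68 and 1.48, a change of 1.30 (adjusted p = 0.0301) that was lost without any 1 of the 6 libraries (adjusted p 0.0584 to 0.112) and with the covariate (0.96, adjusted p = 0.169). T1 at E-L 31 (25.82, 38.45 and 27.91 FPKM) overlapped with T2 replicate C, and the change of 1.05 (adjusted p = 0.0286) was lost without T2 replicate A (0.86), T2 replicate B (0.79) or T1 replicate B (0.89) and with the covariate (0.58, adjusted p = 0.381). At E-L 35 T1 (2.27, 7.38 and 3.14 FPKM) was called at 1.11 (adjusted p = 0.0425, or 0.0505 with a replicate block), a call lost without T1 replicate B (0.72) or any T2 library (adjusted p 0.07 to 0.127).

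VIT_210s0003g01335, a close receptor match, was low in T2 and rose in T8. In T2 it lay between 0 and 0.7 FPKM in all 18 libraries. T8 berries had 14, 9.28 and 7.98 FPKM at E-L 36, then 11.06, 18.6 and 11.85 FPKM at E-L 37, and 1.37, 4.38 and 0.35 FPKM were left by harvest. The T8 libraries were clear of T2 and T1 at E-L 36 and 37, with changes against T2 of 3.24 ± 0.54 (adjusted p = 9.98e-05) and 3.36 (adjusted p = 0.000267), both kept without each library in turn and in all alternatives.

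T1 berries at E-L 31, where the seed score was 5.95, had 0.33, 2.72 and 1.64 FPKM of VIT_210s0003g01335. Most T1 libraries listed it at 0 after that stage, but replicate C stood at 4.19, 3.47 and 1.31 FPKM at E-L 35, 36 and 37. The T8 to T1 change was 2.76 at E-L 36 (adjusted p = 0.00118) and 3.45 at E-L 37 (adjusted p = 9.64e-05). The first was 1.13 with an adjusted p of 0.254 with the seed score as covariate. Within T8 the gene fell by 2.49 between E-L 37 and 38.

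VIT_202s0012g01270, also a close receptor match, stayed up longer under T8. In T2 it went from 26.66, 25.58 and 23.37 FPKM at E-L 35 to 7.2, 10.89 and 5.26 FPKM at E-L 36, a fall of 1.63 (adjusted p = 8e-05). T8 berries had 24.09, 14.92 and 14.38 FPKM at E-L 36, a change of 1.11 against T2 (adjusted p = 0.00741), with no overlap. The change was 0.89 without T2 replicate C, 0.88 without T8 replicate A and 0.87 with the covariate, none of them called. T1 berries at E-L 36 had 8.36, 14.23 and 6.39 FPKM and fell by 1.43 from E-L 35 as T2 berries did.

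VIT_214s0066g00275, a distant receptor member under 5 FPKM that is named after its values were seen, was called in 1 comparison between treatments, higher in T8 than in T1 at E-L 37 (1.28), and in 1 step, a rise of 1.38 within T8 from E-L 36 to 37.

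The 2C phosphatase members were mostly even over development. The most abundant were distant matches, VIT_204s0008g07320 (81.53 to 178.58 FPKM) and VIT_212s0028g03310 (56.19 to 161.76 FPKM), and neither was called in any comparison between groups. Of the 43 tested, 5 were called in at least 1 comparison between treatments, against 12.5% of all tested genes, a share close to the background. In development VIT_208s0058g00660 fell by 2.48 from 4.64, 7.82 and 6.61 FPKM at E-L 29 in T2, and VIT_213s0067g01270 fell by 2.04 between E-L 31 and 35. The close matches VIT_206s0004g05460 and VIT_216s0050g02680, picked after their values were seen, rose by 1.35 and 1.89 over that step.

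VIT_202s0025g01390, close to 2C phosphatase 8, was low in light-grown berries and raised in T1 at E-L 31 and in T8. At E-L 36 T8 had 10.15, 9.09 and 5.88 FPKM against 0.37, 0 and 0.36 in T2, a change of 2.90 (adjusted p = 0.000227), and at E-L 37 it had 5.26, 6.6 and 6.56 against 0.74, 2.24 and 0.37, a change of 1.85 (adjusted p = 0.0286). The libraries did not overlap at either stage. With the seed score as covariate the changes were 1.23 (adjusted p = 0.0692) and 0.73 (adjusted p = 0.288), and the call at E-L 37 was lost without T2 replicate A or C or any T8 library (adjusted p 0.0603 to 0.143). Against T1 the T8 changes were 2.94 at E-L 36 (adjusted p = 0.000376) and 2.03 at E-L 37 (adjusted p = 0.0134). With the covariate they were 1.25 (adjusted p = 0.124) and 0.97 (adjusted p = 0.142), and the second was lost without T1 replicate A or B or T8 replicate B or C (adjusted p 0.0516 to 0.1).

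In T1 at E-L 31 the same phosphatase stood at 2.98, 14.34 and 3.21 FPKM against 0.13, 0 and 2.58 in T2. The change of 1.997 (adjusted p = 0.00362) was 1.36 without T1 replicate B (adjusted p = 0.0633) and 0.43 with the seed score as covariate (adjusted p = 0.516). The T2 library with the highest seed score, replicate C, was also the T2 library with the highest level of this gene.

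VIT_216s0022g02210 had 1.69, 16.42 and 3.73 FPKM in T1 at E-L 31 against 0.26, 0 and 2.18 in T2, which overlap, with a change of 1.93 (adjusted p = 0.000286, and 0.0555 with the seed covariate). In T8 at E-L 36 it stood at 2.54, 1.3 and 0.75 FPKM, and T2 was listed at 0 in all 3 libraries (adjusted p = 0.0249, or 0.681 with the covariate). That call was lost without any of the T2 libraries or T8 replicate A or B (adjusted p 0.0524 to 0.17). VIT_209s0002g03530 (6.23, 19.12 and 8.89 FPKM against 3.83, 2.77 and 4.42) and VIT_209s0002g03600 (2.75, 9.87 and 4.83 against 1.37, 2.01 and 1.66) have the same BLAST name, 2C phosphatase 6. They were higher in T1 at E-L 31 by 1.29 and 1.22, and by 0.87 and 0.81 without T1 replicate B, below the fold threshold.

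A distant phosphatase, VIT_216s0098g01650, went the other way. T1 had 2.54, 2.05 and 1.6 FPKM at E-L 31 and T2 had 8.9, 6.51 and 5.62, with no overlap. The change of -1.38 (adjusted p = 1.89e-08) was the smallest adjusted p of any member between T1 and T2 at this stage. It was called in every alternative and without each library, and it was the single member called at E-L 31 in a fit of the 6 libraries alone.

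**Figure D2:**
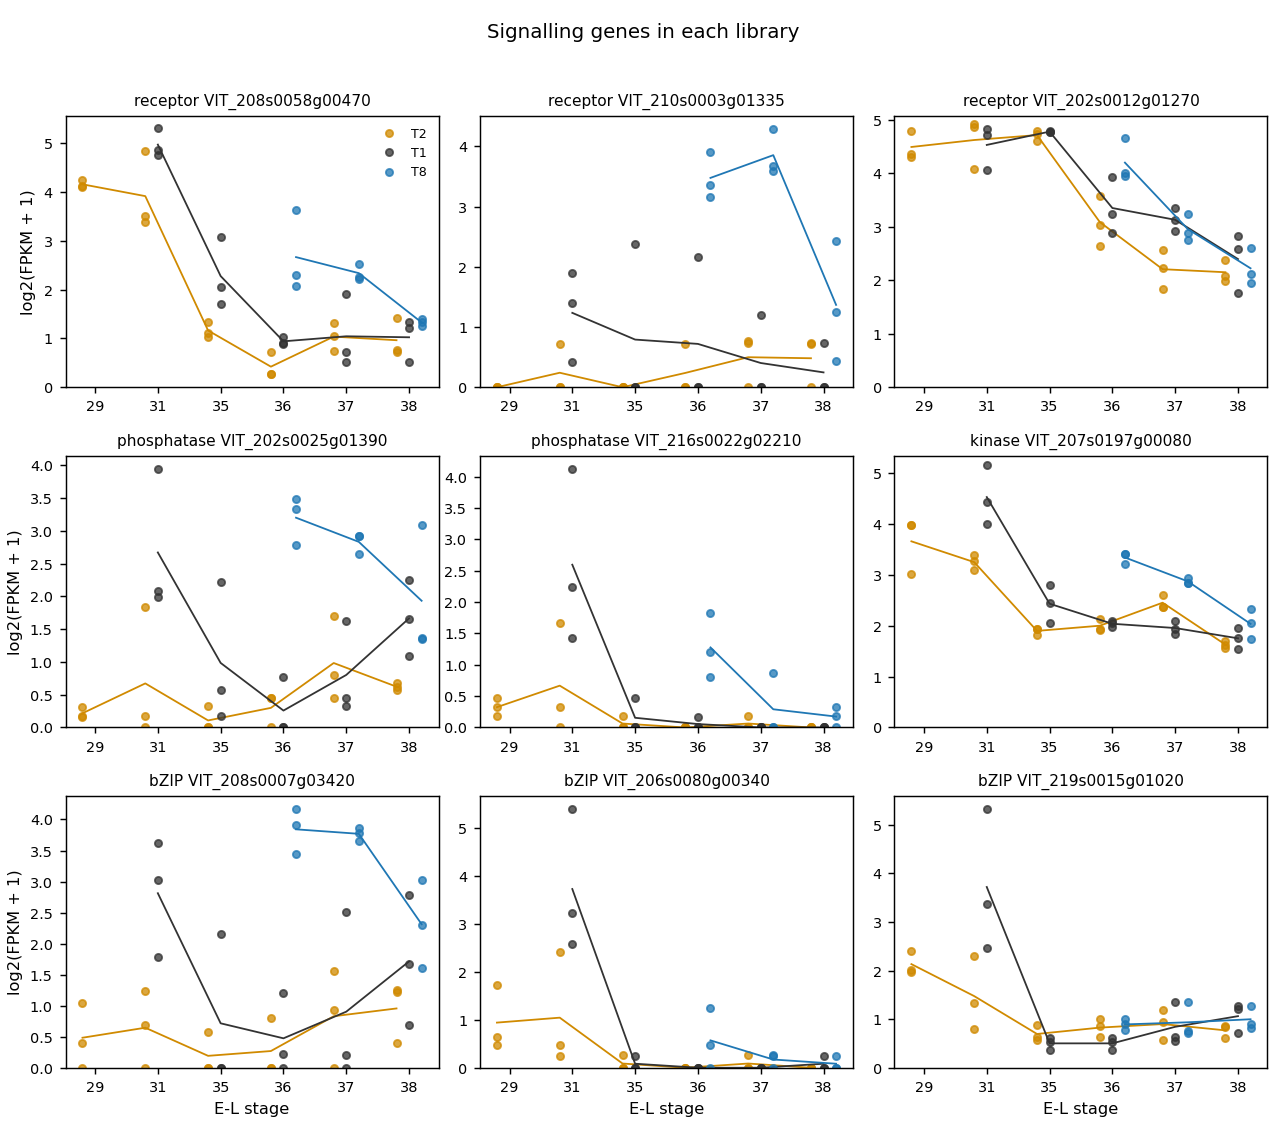
Levels as log2(FPKM + 1) (vertical axes) of 9 receptor, phosphatase, kinase and bZIP transcription factor genes by E-L stage, with a point for each library and lines through group means. The bZIP gene VIT_208s0007g03420 and the receptor VIT_210s0003g01335 are high in T8 at E-L 36 and 37, and the bZIP genes VIT_206s0080g00340 and VIT_219s0015g01020 are high in T1 at E-L 31, most of all in replicate B.

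All 8 SRK2 kinase members were expressed at 5 FPKM or more in a group, and they moved little with treatment. VIT_212s0035g00310 (41.11 to 85.96 FPKM) and VIT_203s0063g01080, named SAPK10 (18.03 to 44.03 FPKM), were the most abundant, and no comparison called them. VIT_207s0031g03210, named SAPK7, fell before harvest from 13.78, 15.21 and 13.08 FPKM at E-L 37 to 4.79, 5.28 and 7.24 at E-L 38 in T2. The fall was called in all 3 treatments, by 1.16 in T2, 1.24 in T1 and 1.06 in T8, the last below the fold threshold (-0.88) without T8 replicate B at E-L 38.

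The kinase member called between treatments was VIT_207s0197g00080, whose KEGG match is close but whose BLAST name is a disease resistance protein, At5g66900-like. T1 berries at E-L 31 had 15.04, 34.6 and 20.65 FPKM against 7.51, 8.63 and 9.54 in T2, with no overlap and a change of 1.28 (adjusted p = 3.91e-05), which was 0.97 without T1 replicate B and 0.94 with the seed covariate. In T8 at E-L 36 it had 9.61, 9.66 and 8.24 FPKM against 3.4, 2.84 and 2.8 in T2, a change of 1.34 (adjusted p = 7.27e-05), which was 0.98 with the covariate. The T8 to T1 change at E-L 36 was 1.30 (adjusted p = 0.000195), which was 0.93 with an adjusted p of 0.0519 with the covariate.

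Among the transcription factor members, VIT_203s0063g00310, an ABI5-like protein, was steady at 22.14 to 64.49 FPKM and not called. VIT_218s0076g00330, a distant match named VIP1-like, climbed in T2 from 17.93, 19.15 and 20.5 FPKM at E-L 29 to 83.39, 87.42 and 87.29 at E-L 38, with the step from E-L 31 to 35 called (1.05, and 0.94 without T2 replicate B at E-L 31). VIT_205s0077g01140, also distant and with no BLAST name, rose from 1.89, 2.53 and 3.33 FPKM to 26.27, 23.56 and 25.85 over the same span, in steps of 1.68 to E-L 31 and 1.58 from E-L 36 to 37.

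VIT_208s0007g03420, a close match to the ABA responsive element binding factor, showed the largest T8 change of any member. It was at 16.91, 14.1 and 9.89 FPKM in T8 at E-L 36 against 0, 0 and 0.75 in T2, and at 11.59, 12.83 and 13.55 at E-L 37 against 0.91, 1.94 and 0. At E-L 38 T8 retained 2.06, 7.17 and 3.9 FPKM. The changes against T2 were 3.57 (adjusted p = 0.000115), kept in every alternative, and 2.94 (adjusted p = 0.00333), lost with a pseudocount of 0.1 (adjusted p = 0.0583), and those against T1 were 3.37 and 2.87. The T8 to T1 call at E-L 36 was lost with the seed covariate (1.32, adjusted p = 0.138), and that at E-L 37 in a fit of the 6 libraries alone (adjusted p = 0.111).

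In T1 at E-L 31 VIT_208s0007g03420 had 2.45, 11.34 and 7.13 FPKM against 0.62, 0 and 1.36, with no overlap. The change of 2.17 (adjusted p = 0.00626) was 1.76 without T1 replicate B (adjusted p = 0.0555) and 0.27 with the covariate (adjusted p = 0.737). Between E-L 31 and 35 in T1 the gene fell by 2.10, and with the covariate the change turned to 1.09 (adjusted p = 0.142).

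The close bZIP match VIT_206s0080g00340 and VIT_219s0015g01020, a distant match named G-box-binding factor 4, were high in T1 at E-L 31 and at no later stage. VIT_206s0080g00340 had 4.94, 40.72 and 8.3 FPKM against 0.38, 0.19 and 4.33 in T2, and VIT_219s0015g01020 had 4.51, 39.42 and 9.31 against 0.74, 1.51 and 3.92. In both genes T1 replicate B was far above A and C, and T2 replicate C was the highest of T2. The changes were 2.68 (adjusted p = 3.04e-05) and 2.25 (adjusted p = 5.81e-05), kept without each library and with the covariate but not in a fit of the 6 libraries alone (adjusted p 0.159 and 0.171). The T1 effect at E-L 31 exceeded that at E-L 35 by 2.68 and 2.44 (adjusted p = 0.00209 and 0.00153).

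VIT_204s0069g01150, an ABI5-like protein, had 4, 6.69 and 7.98 FPKM in T8 at E-L 36 against 0.57, 3.46 and 2.53 in T2. The change of 1.27 (adjusted p = 0.0115) was 0.82 and not called without T2 replicate A, nor called without T8 replicate C (1.09, adjusted p = 0.0667). Its BLAST entry and KEGG hit are shared with other members, VIT_213s0175g00120 among them, and whether reads were divided between these genes was not tested. VIT_200s0541g00020, a distant match, was raised at the middle stages under bags. It had 3.67, 4.55 and 4.66 FPKM in T1 and 4.25, 3.6 and 1.49 in T8 at E-L 36, against 1.01, 0.76 and 0.5 in T2, with changes of 1.60 (adjusted p = 0.00485) and 1.17 (adjusted p = 0.0153). The first was lost with a pseudocount of 0.1 (adjusted p = 0.0744) and the second with that pseudocount (adjusted p = 0.092), with the covariate (adjusted p = 0.128) or without T2 replicate C (1.06), T8 replicate A (0.96) or T8 replicate B (1.05). At E-L 35 the T1 change was 1.004 (adjusted p = 0.0402), lost without T2 replicate B or C or T1 replicate A or B (0.82 to 0.97).

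GRIP55 (VIT_218s0001g10450), named after its values were seen, had 61.2, 61.89 and 55.33 FPKM in T1 at E-L 35 against 40.63, 45.37 and 46.58 in T2. It did not pass the fold threshold at any stage, and its T1 effect at E-L 31 minus that at E-L 35 was -0.76.

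Counted over the 94 tested members, T1 at E-L 31 had 9 higher and 2 lower than T2, against 2.71% and 3.45% of all tested genes. Of these 11, 9 were close matches, beside 43 of the 94 tested members. Without T1 replicate B 7 members were called. The seed score moved with this comparison, at 5.95 in T1 and 4.19 in T2, and the summed seed list levels were 9878.06 to 45554.96 FPKM in T1 against 303.85 to 9265.23 in T2. With the score as covariate 8 members were called, and the part of seed transcripts was not tested beyond that fit. The share of all genes called in that fit is not given here. At E-L 35 the counts were 2 higher and 3 lower (0.785% and 1.44% of all genes), at E-L 36 1 higher and 0 lower (0.301% and 0.342%), and at E-L 37 0 higher and 2 lower (0.11% and 0.671%). The T1 effect differed between E-L 31 and 35 for 24 members, against 23.8% of all genes, so the members' share was close to the background there. Members placed in the synthesis role by their KEGG term made up both calls at E-L 37 and 2 of the 5 at E-L 35, all lower in T1. They were VIT_205s0051g00670 at both stages, VIT_202s0087g00930 (CCD4b) at E-L 35 and its neighbour VIT_202s0087g00910 at E-L 37. CCD4b is the name of a dioxygenase of another type, and whether it or its neighbour acts in ABA synthesis was not tested. At E-L 35 and 37 the NCED gene VIT_219s0093g00550 changed by 0.71 and 0.57 and NCED2 by -0.47 and -0.01, none of them called.

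T8 at E-L 36 had 11 members higher and 0 lower than T2, against 3.67% and 0.365% of all genes. Close matches were 9 of the 11, beside 43 of the 94 tested members. The 11 comprised 3 receptor, 2 phosphatase, 1 kinase, 3 transcription factor, 1 synthesis and 1 breakdown gene. At E-L 37 4 were higher and 0 lower (1.76% and 0.265%), namely the receptors VIT_208s0058g00470 and VIT_210s0003g01335, the phosphatase VIT_202s0025g01390 and the bZIP gene VIT_208s0007g03420. The seed score and the late embryogenesis list moved with these calls. The late embryogenesis genes summed to 501.43 to 1075.97 FPKM in T8 at E-L 36 against 92.22 to 124.16 in T2, and to 414.77 to 477.38 against 25.56 to 137.81 at E-L 37. The part of seed transcripts in the member calls was not tested beyond the covariate fit, which left 5 calls at E-L 36 and 2 at E-L 37. The share of all genes called in that fit is not given here, so whether the loss is particular to the members was not tested.

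Against T1, T8 had 7 members higher and 0 lower at E-L 36 (2.79% and 0.196% of all genes) and 6 higher and 0 lower at E-L 37 (2.22% and 0.279%). The comparisons of T8 and T1 with T2 share their T2 libraries. The T8 effect at E-L 36 differed from that at E-L 37 for 2 members (2.12% of all genes) and from that at E-L 38 for 3 (2.43%).

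At harvest limma called no member between treatments. VIT_212s0028g03310 reached an adjusted p of 0.0122 in T8 against T1, but its log2 fold change of 0.39 was below the threshold. For T1 against T2 at E-L 38 the background was 0.338%, and 10 members had an unadjusted p under 0.05 and 3 were called with a pseudocount of 0.1. For T8 against T2 the background was 0.0457%, with 9 members at an unadjusted p under 0.05 and 0 called with that pseudocount, and for T8 against T1 it was 0.374%, with 10 and 2.

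**Figure D3:**
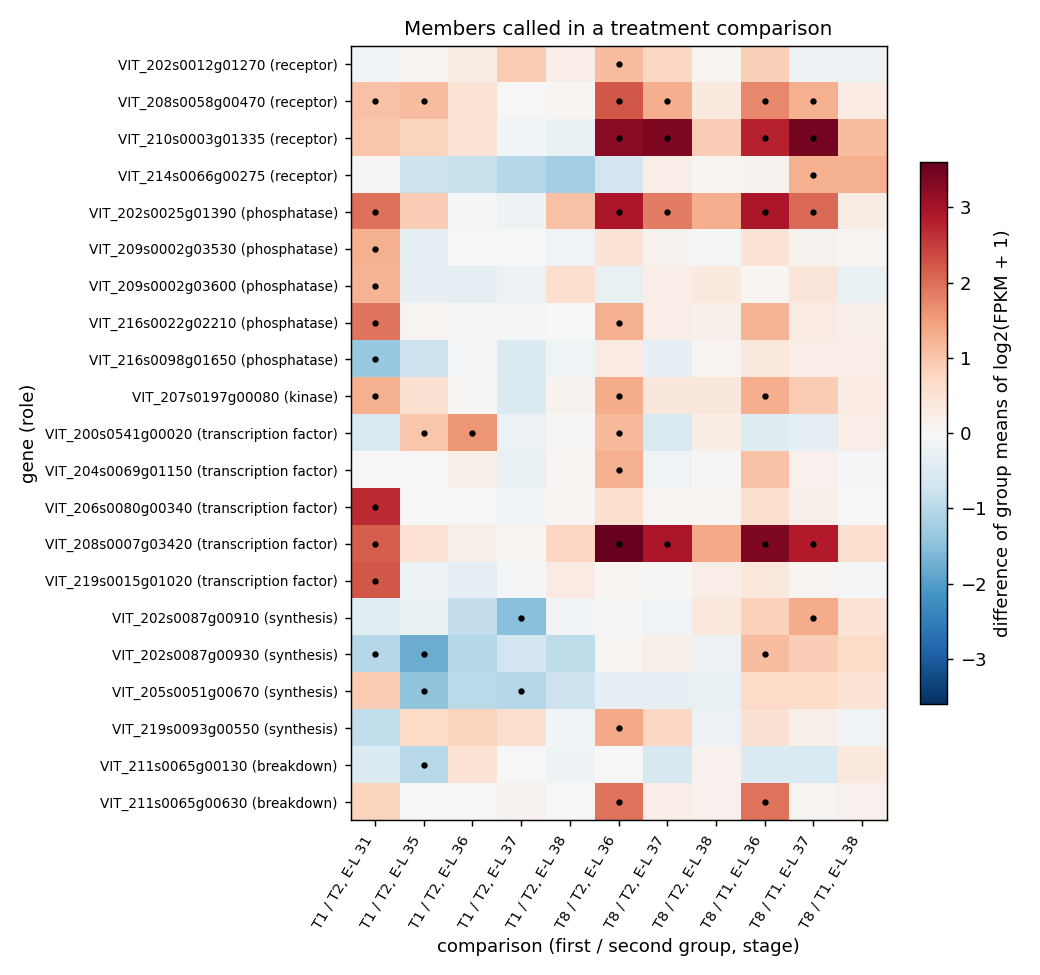
Difference of group means of log2(FPKM + 1) (colour) for the 21 of 94 tested members called in a treatment comparison (rows), in each of the 11 comparisons (columns), with a dot where the gene was called. Of all tested genes, 12.5% were called in at least 1 of these comparisons. T8 at E-L 36 has 11 dots against T2, all of them higher, and the 3 comparisons at E-L 38 have none.

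In T2 development 5 members rose and 11 fell from E-L 29 to 31 (6.28% and 11.9% of all genes). Of the 11 that fell, 7 were breakdown genes, which made up 12 of the 94 tested members. Among these 7, VIT_218s0001g10500 alone was a close match to ABA 8'-hydroxylase, and the others were distant matches. HYD2, the most abundant close match, was called higher over the same step. From E-L 31 to 35 8 rose and 9 fell (3.7% and 14.2%), and from E-L 35 to 36 1 rose and 7 fell (1.09% and 2.78%). From E-L 36 to 37 4 rose and 3 fell (3.45% and 2.94%), and from E-L 37 to 38 1 rose and 4 fell (0.808% and 4.26%). Over all 5 steps, 35 of the 94 members were called at least once, against 35.5% of all tested genes, a share close to the background, and the 35 include all 5 tested synthesis members. The all-gene median of the step from E-L 31 to 35 was -0.22, or -0.06 with median-of-ratios scaling, and that of the step from E-L 36 to 37 was 0.16, or 0 with that scaling.

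Within T1, 25 members were called between E-L 31 and 35 (15.8% of all genes), 8 higher and 17 lower. Close matches were 10 of the 17, beside 43 of the 94 tested members. The later T1 steps had 5 (4.85%), 7 (6.03%) and 6 (6.9%). Within T8, 7 members were called from E-L 36 to 37 (5.79%), and the step to harvest had 6 (6.03%). Both counts of T8 and the later counts of T1 were close to their backgrounds.

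**Figure D4:**
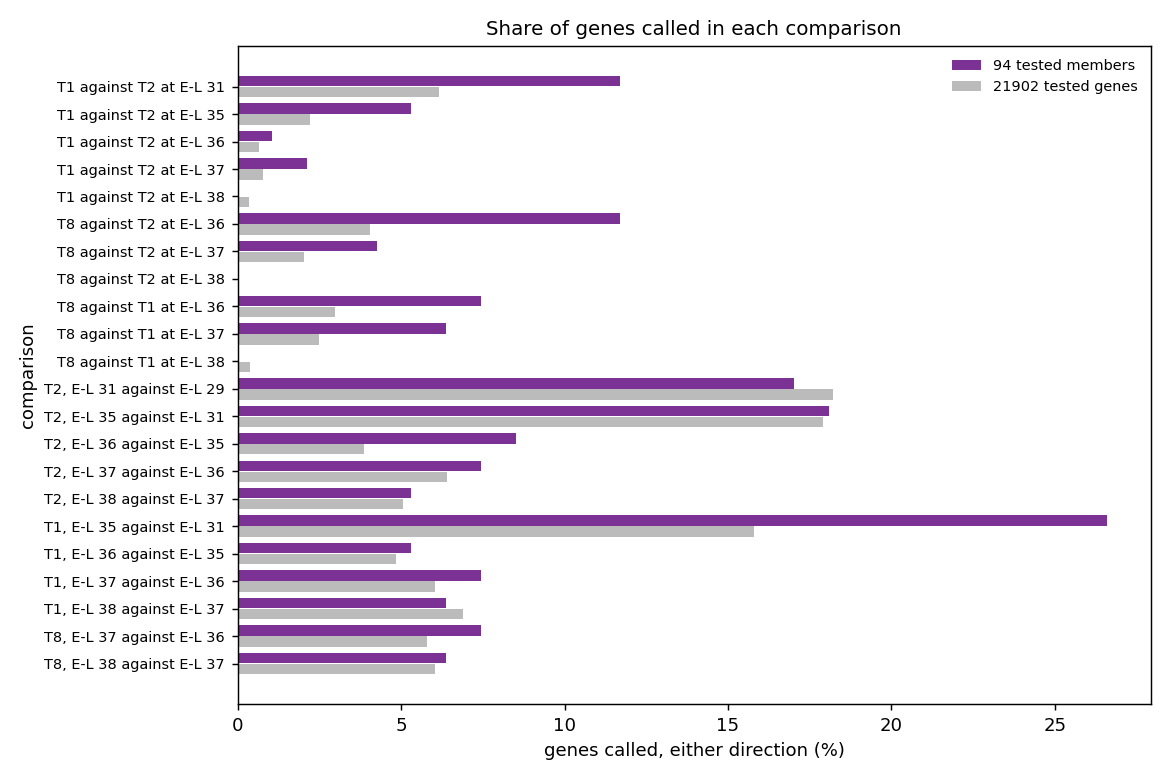
Percentage of the 94 tested members (purple) and of all 21902 tested genes (grey) that were called in either direction, on the horizontal axis, for each of the 22 comparisons between groups. For T8 against T2 at E-L 36 it was 11 members, and at E-L 38 none of the 3 treatment comparisons had a member called.

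Over the 42 libraries the deviations of 5 tested members from their group means correlated with those of the seed score at r of at least 0.5, which is 5.319% of the members and 2.018% of all genes. They were VIT_208s0007g03420 (r = 0.813), VIT_202s0025g01390 (0.783), VIT_210s0003g01335 (0.722), VIT_216s0022g02210 (0.585) and VIT_206s0080g00340 (0.565). The points share library and depth, and the values are a description.

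**Figure D5:**
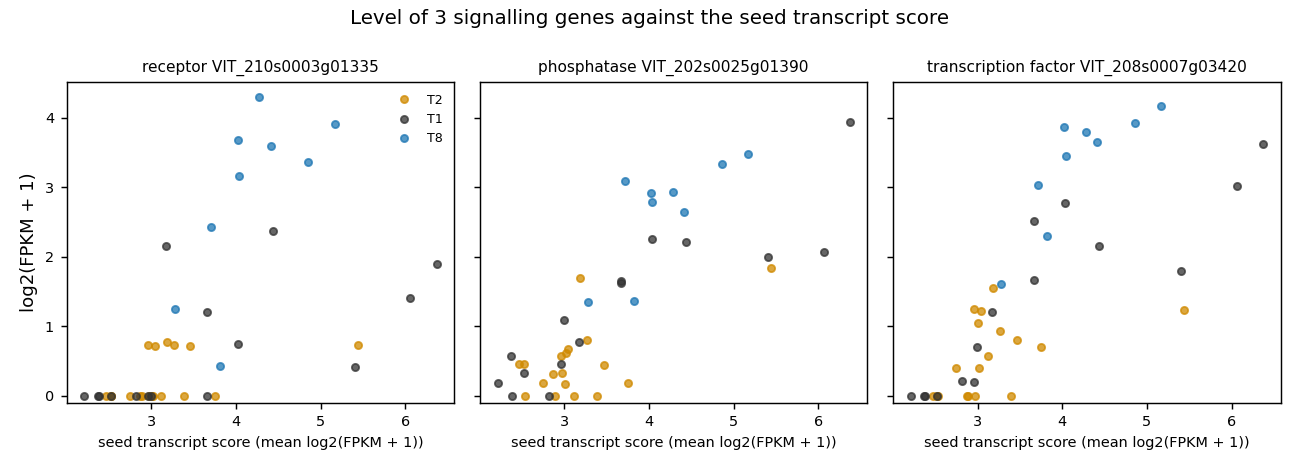
Level as log2(FPKM + 1) (vertical axes) of the receptor VIT_210s0003g01335, the phosphatase VIT_202s0025g01390 and the bZIP gene VIT_208s0007g03420 against the seed transcript score, a mean of log2(FPKM + 1) (horizontal axes), with a point for each of the 42 libraries. At scores near 4 the T8 libraries lie mostly above those of T1 and T2, and all 18 T2 libraries of the receptor lie at 0.7 FPKM or less.

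Steps of the pathway outside the rule were taken as lists by annotation text. Of 28 tested genes for earlier and final synthesis steps, 2 were lower and 0 higher in T1 at E-L 31, with a median change of -0.26 against 0 for all genes and a background of 3.45% lower and 2.71% higher. VIT_217s0000g05580, annotated as xanthoxin dehydrogenase, an enzyme that acts after NCED, had group means of 22.123 FPKM in T1 and 101.677 in T2. This was a change of -2.25 (adjusted p = 1.59e-07). VIT_206s0009g01670, annotated as zeaxanthin epoxidase, changed by -1.66. Both were named after their values were seen, and annotation text was taken without a limit on match score. In T8 at E-L 36 1 of the 28 was higher, close to the 3.67% of all genes, and in T2 between E-L 31 and 35 1 rose and 8 fell (median -0.48 against -0.22 for all genes, of which 3.7% rose and 14.2% fell).

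Among 7 genes of ABA-responsive output, the HVA22-like gene VIT_217s0000g01080 was lower in T1 at E-L 31 by 1.66 on the log2 scale (adjusted p = 1.7e-05), and the dehydrin VIT_204s0023g02480, a desiccation protein also found in seeds, was higher in T8 at E-L 36 by 4.87 (adjusted p = 0.000497). Each was the single output gene called in its comparison, beside 3.45% of all genes lower in T1 at E-L 31 and 3.67% higher in T8 at E-L 36. Both were named from annotation text after their values were seen. Of 3 tested transport and channel genes, 1 was lower in T1 at E-L 31.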

How the data were processed

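RNA from deseeded berries was sequenced by the authors as single-end poly(A) libraries and aligned to the PN40024 genome (version 2), with Bowtie by the methods and Bowtie2 2.2.5 by the processing notes. The authors deposited FPKM per gene and library, rounded to 2 decimals. The counting tool and gene-level counts are not given in the sources used here, and depth per gene is therefore unknown. Of values under 5 read steps, 89.95% lay within 0.1 of a whole step over 1094 genes.

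Values were taken as log2(FPKM + 1). A limma 3.58.1 model (R 4.3.3, trended prior) with 14 group means over 42 libraries was tested two-sided, with Benjamini-Hochberg adjustment within a comparison. Python 3.11.15, pandas 2.3.3, numpy 2.4.6 and matplotlib 3.10.9 were also used. The fit was tested on simulated data. The test of the study, NOISeq, was not run. The alternatives were a pseudocount of 0.1, no filter, median-of-ratios scaling, only the libraries of the groups compared, a replicate block, the seed score as covariate, and each library left out.

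Genes named are members of at least 5 FPKM called between treatments, the 2 most abundant and the 2 with the largest T2 steps of each role, and members the study names. The members, lists and bit score limit were chosen with earlier results of these data known. p-values measure the spread between replicate samples. Replicate letters did not pair libraries (mean r of same-letter residuals 0.00222, from -0.297 to 0.328), and 17 of 42 libraries were nearest to their own letter. Names come from the deposited annotation and from RefSeq assembly ASM3070453v1, in which 58 members' best hits were found. Its build differs, so no coordinates or sequences are given.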

Additional observations from a re-analysis of the deposited data

Results flagged for a closer look

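The effect of T1 differed between E-L 31 and E-L 35 for 10 of the genes named, as the limma contrast of both effects (E-L 31 minus E-L 35, adjusted p under 0.05). It also differed for 23.8% of all tested genes and for 24 of the 94 tested members, so a difference at these stages is not particular to the genes listed. It was positive for the bZIP genes VIT_206s0080g00340 (2.68) and VIT_219s0015g01020 (2.44) and for the phosphatases VIT_216s0022g02210 (1.84), VIT_209s0002g03530 (1.65), VIT_209s0002g03600 (1.50) and VIT_204s0008g07320 (0.31). It was negative for the NCED gene VIT_219s0093g00550 (-1.60), the distant bZIP match VIT_200s0541g00020 (-1.56) and the phosphatases VIT_216s0098g01650 (-0.62) and VIT_212s0028g03310 (-0.38).

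The effect of T8 at E-L 36 differed from that at E-L 37 for 2.12% and from that at E-L 38 for 2.43% of all tested genes. Among the genes named it differed from that at E-L 37 for VIT_200s0541g00020 (1.73) and the P450 gene VIT_211s0065g00630 (1.72), and from that at E-L 38 for the PYL4-like receptor VIT_208s0058g00470 (1.88), the NCED gene VIT_219s0093g00550 (1.56) and VIT_211s0065g00630 (1.80). The values for VIT_211s0065g00630 are differences of log2(FPKM + 1) against groups listed at 0 and are no bound on its fold.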

How the results depend on the processing

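Of 133 calls of named genes, 92 were kept without each library in turn, and the replicate block ended 2 of them. Counts of members called changed by over 1.5 times as follows, and the cause was not tested. The share of all genes called under each alternative is not given here, so whether these changes are particular to the members was not tested. Fits of only the libraries compared, which leave fewer residual degrees of freedom, gave 1, 3 and 1 calls for T1 against T2 at stages E-L 31, 35 and 37, 2 for T8 against T1 at E-L 37, 5 for the T1 contrast and 5 for the T8 contrast of E-L 36 and 38. The pseudocount of 0.1 gave 3, 0, 1 and 3 for T1 against T2 at E-L 35, 36, 37 and 38, 2 for T8 against T2 at E-L 37, 2 for T8 against T1 at E-L 38, 12, 13 and 15 for the step from E-L 36 to 37 in T2, T1 and T8, and 1 for the T8 contrast of E-L 36 and 37. No filter gave 3 for T1 at E-L 35 and 1 for that T8 contrast, median-of-ratios scaling 1 for T1 at E-L 37, and the replicate block 2 for T1 at E-L 36. The seed score covariate gave 5 and 2 for T8 against T2 at E-L 36 and 37, and 1 each for T8 against T1 at E-L 36 and both T8 contrasts.

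With the covariate the T1 change from E-L 31 to 35 turned from -2.10 to 1.09 for VIT_208s0007g03420 (adjusted p = 0.142) and from -1.68 to 0.95 for VIT_202s0025g01390 (adjusted p = 0.168).

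Leaving out 1 library gave 7 to 16, 2 to 5, 1 to 2, 1 to 2 and 0 to 1 calls for T1 against T2 at E-L 31 to 38, 8 to 10, 2 to 3 and 0 for T8 against T2 and 5 to 9, 3 to 6 and 0 for T8 against T1. The T2 steps gave 16 to 20, 16 to 18, 7 to 10, 6 to 9 and 5 to 6, the T1 steps 24 to 29, 3 to 6, 7 to 11 and 6 to 8, the T8 steps 7 to 10 and 5 to 6, and the contrasts 18 to 29, 1 to 3 and 1 to 3.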
